A study of Mus musculus with 4 samples.

Results

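Interferon-stimulated genes were compared between GO2 and ID8G mouse ovarian cancer cells. The set held 48 genes out of the 22911 genes that the arrays name. They were listed by symbol and not by a rule on measured values, but earlier results of these data were known. The list as a whole was therefore not tested, and the shares below only describe it. Probes for 44 of the 48 genes were found through the RefSeq accession given for each spot, and these were 65 probes. Mx1, Mx2, Ifitm2 and Ifi203 were matched to no probe, so they were not analysed here.

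Interferons are secreted proteins that cells release when they sense foreign or misplaced nucleic acid. Type I and type III interferons bind surface receptors coupled to the kinases JAK1 and TYK2, which activate a complex of transcription factors that includes STAT2 and IRF9 and binds the interferon-stimulated response element (ISRE) in the promoters of target genes. Type II interferon acts mainly through the gamma-activated site (GAS). The induced proteins sense nucleic acid, block viral entry, translation or release, and feed back on the pathway, and many tumor cells express part of this program without added interferon.

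ID8G is a GFP-expressing derivative of ID8, a line of transformed ovarian surface epithelium cells from C57BL/6 mice, and it is the parental group. GO2 cells descend from ID8G cells that passed through 2 rounds of intraperitoneal injection into female C57BL/6J mice and growth in the omentum, each followed by sorting of CD45-GFP+ cells and culture. The paper gives a serum-supplemented medium with insulin, transferrin and selenite for ID8 cells and names no other for GO2 cells. Both groups carry the same GFP marker, and the labels name no interferon or other treatment for either. Each group was 1 line measured on 2 single-color Agilent arrays, so the number of arrays limits the precision, and nothing states that the arrays of a line came from separate cultures. The p-values therefore measure the spread between these arrays, which may be technical, and the exact permutation test of 2 arrays against 2 cannot go below 0.333 (two-sided). A level below is the log2 of a probe's intensity relative to the 75th percentile of its array, and a difference is GO2 minus ID8G on that log2 scale. Levels of different probes are not comparable, because probes differ in how well they bind.

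The arrays of a line correlated at 0.997 across probes in both lines, and 27502 to 28841 of 56605 probes were well above background on an array. The epithelial and mesothelial genes Krt8, Krt18, Krt19, Msln and Wt1 were well above background on all 4 arrays, whereas Krt7 and Epcam were on none. Several of them were lower in GO2 cells, with Krt19 called lower (-1.65) and Krt18 (-0.81), Msln (-0.82) and Krt8 (-0.55) past the adjusted p at less than 2-fold. The mesothelial gene Upk3b went the other way and was called higher (1.08, adjusted p = 0.000787, limma). Differences of Cdh1 (-0.34), Wt1 (-0.10) and Lrrn4 (-0.04) did not pass the test. The summed linear level of all 11 such genes with a probe was 656 to 663 in ID8G and 374 to 377 in GO2 cells. Of 18 leukocyte markers, 11 were above background on no array, among them Ptprc (CD45) and Adgre1. The other 7, among them Itgam, Cd4, Csf1r, Cd68 and Siglech, were well above background on all 4 arrays. None of these 7 was called different (limma), and 1 passed the adjusted p alone, in the lower direction. Each gene was read from its brightest probe, and probes of a gene did not always agree. For Itgam the brightest gave mean levels of 4.29 in ID8G and 4.15 in GO2 cells, and another gave -3.78 and -3.44. That probe and dimmer ones of Cd4 (-2.62 and -3.74) and Cd68 (-3.52 and -3.36) were too near background to test. A second Csf1r probe was above background on all 4 arrays. Summed over the 18 genes, their linear level was 255 to 259 in ID8G and 238 to 252 in GO2 cells, but Siglech made up 88.4% to 89.4% of each sum, and the other 17 genes summed to 27.2 and 29.9 in ID8G and to 26.9 and 26.7 in GO2 cells. Of 5 fibroblast-associated genes tested, 4 were called higher in GO2 cells (80%, against 5.96% of all genes), namely Col1a1, Col3a1, Pdgfra and Pdgfrb. The other tested gene, Dcn, was lower at less than 2-fold (-0.63, adjusted p = 0.00309), and Lum, Dpt, Fap, Thy1 and Postn were above background on no array. The summed level of all 10 fibroblast markers was 68.5 to 71.3 in ID8G and 130 on each GO2 array, and without Dcn, the brightest, it was 3.84 to 3.89 in ID8G and 87.4 to 87.7 in GO2 cells. The part of these epithelial and fibroblast genes in the results below was not tested. In such bulk RNA, more cells expressing a gene and more RNA per cell cannot be told apart.

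Promoter sequence was a feature that the choice of the genes by symbol did not use. The sequences shown are those of genes that carry the results below, taken from RefSeq (build GRCm38.p6), on the strand of the gene and 5′ to 3′. They run from 250 bases before to 50 bases after an annotated start for Isg15, which was higher in GO2 cells, and for Bst2, the only member called lower. Capitals mark matches to the ISRE core GAAANNGAAA and the GAS core TTCNNNGAA, each searched on both strands.
Isg15, chr4:156200769-156201068, minus strand: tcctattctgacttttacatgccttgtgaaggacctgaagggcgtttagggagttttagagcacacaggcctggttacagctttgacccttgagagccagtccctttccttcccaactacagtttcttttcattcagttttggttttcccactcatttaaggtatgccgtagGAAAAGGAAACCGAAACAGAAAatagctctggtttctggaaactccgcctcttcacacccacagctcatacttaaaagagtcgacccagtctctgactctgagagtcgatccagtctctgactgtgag
Bst2, chr8:71537423-71537722, minus strand: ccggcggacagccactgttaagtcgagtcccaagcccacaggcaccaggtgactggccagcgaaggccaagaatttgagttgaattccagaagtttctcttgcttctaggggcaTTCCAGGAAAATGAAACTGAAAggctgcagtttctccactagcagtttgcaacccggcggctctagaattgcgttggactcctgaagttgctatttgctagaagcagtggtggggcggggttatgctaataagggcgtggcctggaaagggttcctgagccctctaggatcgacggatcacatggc

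The Isg15 window held 3 overlapping ISRE cores, the nearest 66 bases before the start, and no GAS core. The Bst2 window held 2 overlapping ISRE cores, the nearest 124 bases before the start, and a GAS core that overlaps them. Both a gene that rose and the gene that fell thus carried ISRE cores. Shorter stretches, from 8 bases before the first to 8 bases after the last ISRE core with only these in capitals, are given next for 4 genes called higher in GO2 cells (Gbp2, Gbp3, Ifit1 and Ifit3) and for 3 genes that were above background on no array (Gbp7, Oas3 and Rsad2).
Gbp2, chr3:142620596-142620621, plus strand: tcttttagTTTCACTTTCactgtctt
Gbp3, chr3:142559991-142560022, plus strand: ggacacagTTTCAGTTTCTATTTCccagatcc
Ifit1, chr19:34640777-34640821, plus strand: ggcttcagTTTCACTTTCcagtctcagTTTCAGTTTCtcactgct
Ifit3, chr19:34583365-34583424, plus strand: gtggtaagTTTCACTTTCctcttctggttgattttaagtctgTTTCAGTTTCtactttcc
Gbp7, chr3:142530275-142530300, plus strand: gtgtgcagTTTCAGTTTCagttctcc
Oas3, chr5:120777717-120777742, minus strand: agggaggaGAAAACGAAAgtgaaggg
Rsad2, chr12:26456555-26456580, minus strand: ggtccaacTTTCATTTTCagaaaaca

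Of the 48 members, 35 had a promoter in the RefSeq table. An ISRE core was found for 21 of the 35 (60%), against 1079 of all 27025 genes with a promoter (3.99%). A GAS core was found for 11 (31.4%), against 9.55% of all genes. Among the 13 members called higher that had a promoter, 7 held an ISRE core and 2 a GAS core. The 12 members with a promoter that were tested but not called held an ISRE core in 6 cases and a GAS core in 6. Of the 7 members with a promoter that were too dim to test, 5 held an ISRE core. ISRE cores were therefore found in members of each kind, and a match describes these letters only, not a bound site.

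More interferon-stimulated genes were higher than lower in GO2 cells. The genes higher in GO2 cells included the RNA-binding Ifit family, Isg15, the entry-blocking Ifitm1 and Ifitm3, Gbp2 and Gbp3, Oasl1 and Oasl2, the transcription factor Irf7, and Ifi204 and Mndal of the DNA-binding PYHIN family. Of the 44 genes with a probe, 33 had signal well above background on the pair of arrays of ID8G, of GO2 or of both, and were tested. A gene was called when its Benjamini-Hochberg adjusted p over all 28368 probes tested was below 0.05 (limma) and the difference was at least 2-fold. At this threshold 15 members were called higher, where 5.96% of all 13211 genes tested were, and 1 was called lower, where 3.94% of all genes were. Members tested only through their GO2 arrays were selected toward a higher GO2 level, so the 27 members above background on all 4 arrays are given apart. Of these 27, 11 were called higher and 1 lower, against 449 and 358 of 12308 genes with the same property.

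**Figure D1:**
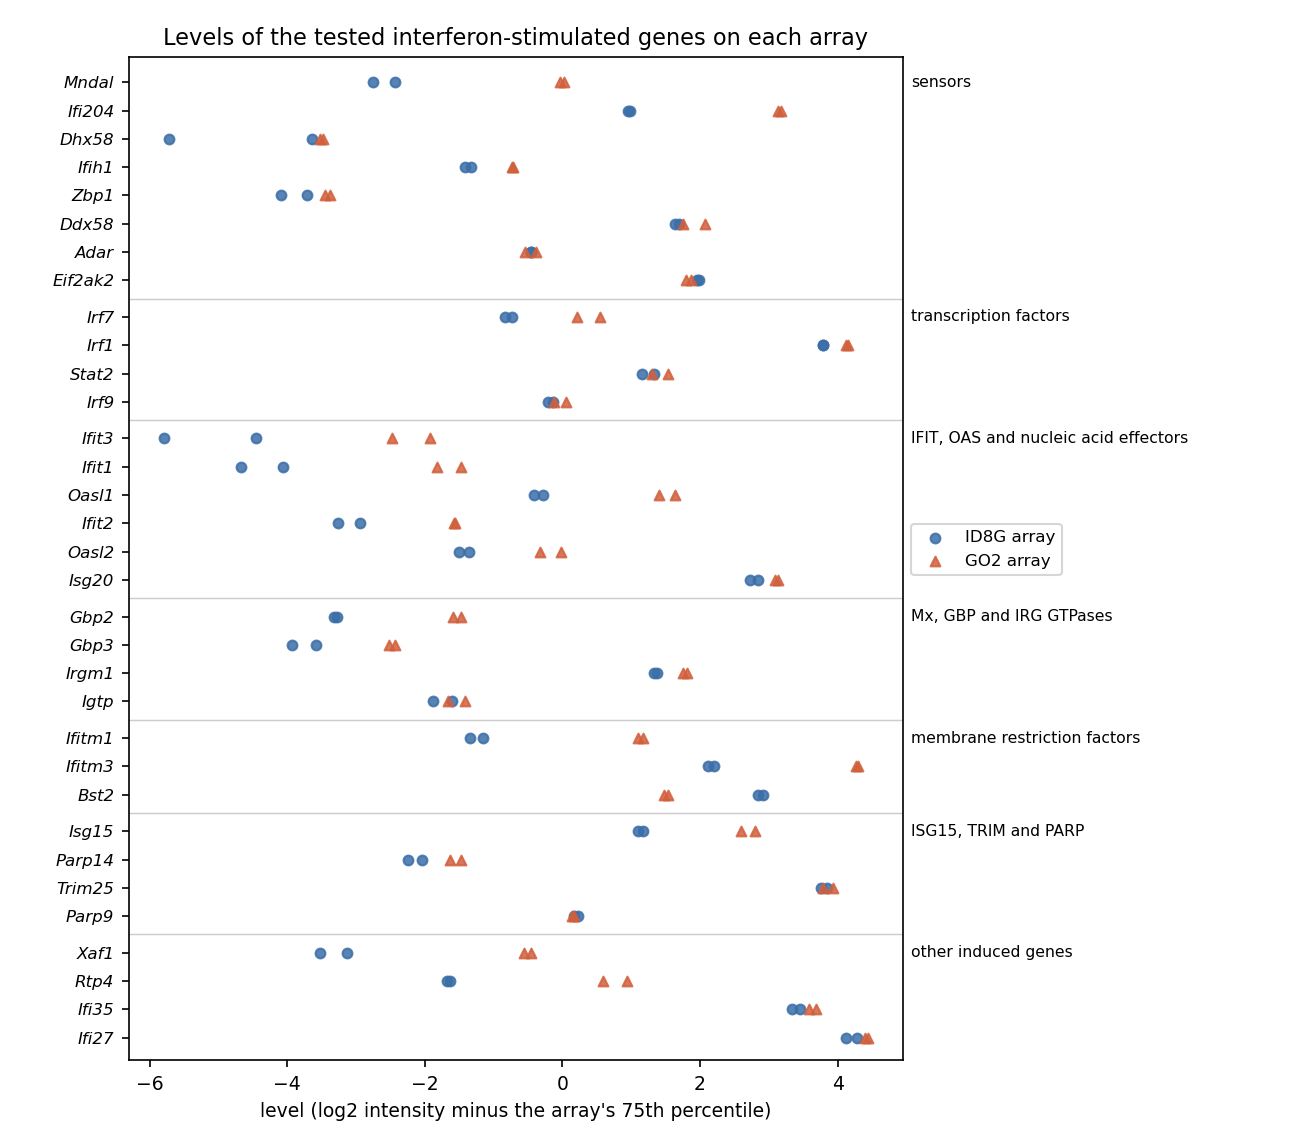
Level of each of the 33 tested interferon-stimulated genes on every array, as log2 intensity relative to the array's 75th percentile (x axis), with genes grouped by role (y axis); circles are ID8G arrays and triangles GO2 arrays. Both GO2 arrays lie to the right of both ID8G arrays for 26 genes and to the left for 2, Bst2 and Eif2ak2. The 26 include the 6 genes tested only through their GO2 arrays.

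Taking the adjusted p alone, 20 of 33 members were higher in GO2 cells and 1 was lower, where 21.0% and 20.0% of all genes were. Both GO2 arrays lay above both ID8G arrays for 26 members, where 39.3% of all genes did. They lay below for 2 members, where 39.1% of all genes did, and the arrays of the lines overlapped for the other 5, where 21.6% of all genes did. The 6 members tested only through their GO2 arrays (Ifit1, Ifit3, Gbp3, Xaf1, Dhx58 and Zbp1) were all among the 26. Ifit1, Ifit3, Gbp3 and Xaf1 were also among the 20 higher by adjusted p alone. The filter selected these members toward a higher GO2 level, so both counts include that selection. The median difference of the 33 members was 0.64 (quartiles 0.21 and 1.86), and it was 0.43 over the 27 above background on all 4 arrays. Over all genes tested the median was 0.00 (quartiles -0.20 and 0.21).

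**Figure D2:**
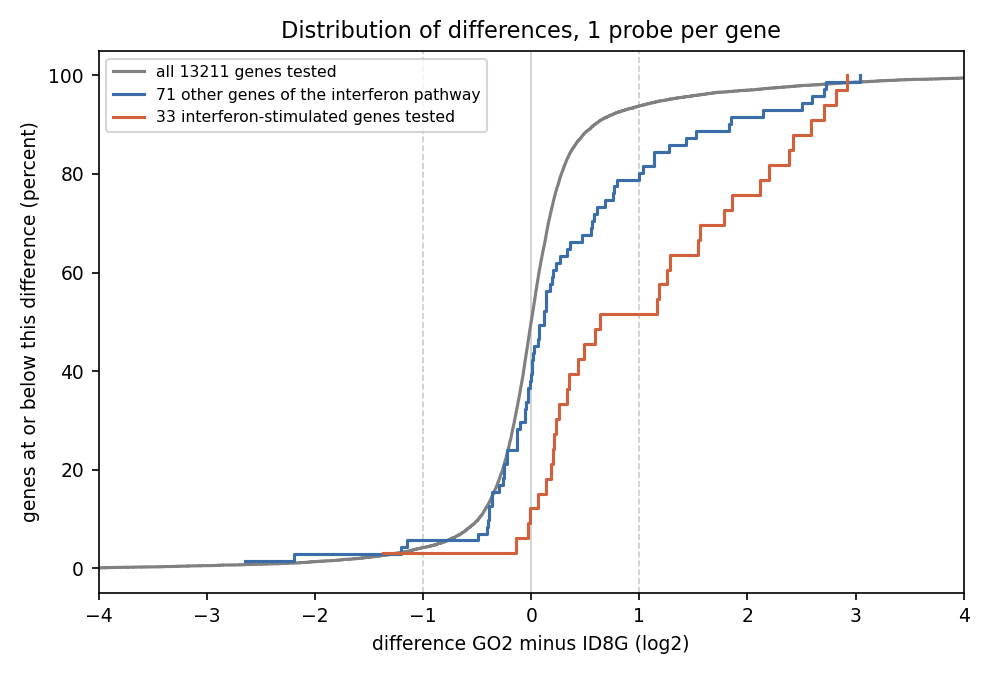
Cumulative share of genes (y axis, percent) at or below each difference of GO2 minus ID8G (x axis, log2, from -4 to 4), for the 33 members, the 71 other tested genes of the interferon pathway and all 13211 genes. The members' curve lies to the right of that of all genes, with medians of 0.64 and 0.00, and dashed lines mark a 2-fold difference. The 33 include 6 members tested only through their GO2 arrays, and the median of the other 27 was 0.43.

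Among the nucleic acid sensors, the PYHIN genes stood out. Ifi204, whose protein binds DNA, had levels of 0.95 and 0.98 in ID8G and 3.18 and 3.13 in GO2 cells. Both GO2 arrays were above both ID8G arrays, and the difference was 4.58-fold (log2 2.20 ± 0.05 SE, adjusted p = 0.000245). Mndal, another member of this family, had levels of -2.76 and -2.43 in ID8G and -0.03 and 0.03 in GO2 cells. Its groups did not overlap either, and the difference was 6.04-fold (2.59 ± 0.12, adjusted p = 0.000766). These genes have similar sequences, and cross-hybridization between their probes was not tested.

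The RNA sensors differed less. Ifih1, which encodes the double-stranded RNA sensor MDA5, had levels of -1.41 and -1.33 in ID8G and -0.72 and -0.74 in GO2 cells. It passed the adjusted p (0.00343) at 1.56-fold and so was below the 2-fold threshold. Ddx58, which encodes RIG-I, gave differences of 0.08 to 0.58 with its 3 tested probes, and none was called. Dhx58 (LGP2), a regulator of these sensors, had levels of -5.72 and -3.64 in ID8G and -3.53 and -3.48 in GO2 cells, and only the brighter ID8G array was above background. Its difference was not called (adjusted p = 0.271). Without ID8G array 2 the difference was 2.22 (adjusted p = 0.00204), but the single ID8G array left was below background and was assumed to vary like the GO2 arrays. Eif2ak2, which encodes the translation-blocking kinase PKR, had a difference of -0.14 (95% interval -0.29 to 0.02), and that of the RNA-editing enzyme Adar was -0.01 (-0.20 to 0.19). The remaining sensor, Zbp1, which recognizes left-handed nucleic acid, had an adjusted p of 0.059. In all, 2 of 8 tested sensors were called higher (25%, against 5.96% of all genes) and none lower.

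Of the 4 transcription factors of the program, 1 was called higher (25%, against 5.96% of all genes) and none lower. Irf7, which drives transcription of type I interferon genes and is itself induced by interferon, had levels of -0.83 and -0.73 in ID8G and 0.21 and 0.55 in GO2 cells. The groups did not overlap, and the difference was 2.23-fold (1.16 ± 0.13, adjusted p = 0.0062). This call rested on the 2-fold threshold, since the difference was 0.99 without GO2 array 2, 0.94 with another background correction (normexp) and 0.95 after scaling to the spike-ins. Irf1, a factor induced by all types of interferon, had levels of 3.79 and 3.79 in ID8G and 4.15 and 4.13 in GO2 cells. All arrays of GO2 were above those of ID8G, but the difference was 1.27-fold (adjusted p = 0.0117). The differences of Irf9 and Stat2, which act together at the ISRE, were 0.14 (95% interval -0.09 to 0.36) and 0.18 (-0.13 to 0.49), and neither passed the test.

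The proteins of the IFIT family bind foreign RNA and hinder its translation, and the 3 IFIT genes among the members were called higher in GO2 cells. Ifit1 had levels of -4.67 and -4.06 in ID8G and -1.83 and -1.48 in GO2 cells. It was not well above background on either ID8G array and was at least 4.06-fold higher in GO2 cells (adjusted p = 0.00384). Such a bound sets the GO2 mean against the lowest signal counted as above background on each ID8G array, or the probe's own signal where that was higher. With normexp, which adds an offset to every signal and so compresses the differences of dim probes, the difference of Ifit1 was 1.38 on the log2 scale, which is below this bound. Ifit3 had levels of -5.79 and -4.46 in ID8G, both below background, and -2.48 and -1.92 in GO2 cells. It was at least 2.78-fold higher (adjusted p = 0.0184), although this call was lost without GO2 array 1 (adjusted p = 0.0696), without GO2 array 2 (0.0916) and without the filter on dim probes (0.084). The fitted difference of Ifit3 was 2.92, and it was 1.09 with normexp, 2.26 without ID8G array 1 and 3.59 without ID8G array 2. Ifit2 was measured on all arrays, with levels of -2.94 and -3.26 in ID8G and -1.56 and -1.57 in GO2 cells. Its groups did not overlap, and it was 2.90-fold higher (1.54 ± 0.12, adjusted p = 0.00263), or 0.93 on the log2 scale with the normexp correction, below 2-fold.

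The OAS family comprises enzymes that make short oligoadenylates, which activate the RNA-degrading enzyme RNase L, and their relatives. Oasl1, whose protein restrains translation of Irf7 RNA, had levels of -0.41 and -0.28 in ID8G and 1.40 and 1.63 in GO2 cells. The difference was 3.64-fold (1.86 ± 0.11, adjusted p = 0.00112), and a second probe gave 1.98. Oasl2 had levels of -1.51 and -1.36 in ID8G and -0.32 and -0.02 in GO2 cells. Here too the groups did not overlap, and the difference was 2.39-fold (1.26 ± 0.13, adjusted p = 0.00484), or 0.97 on the log2 scale with normexp. The classical synthetase genes Oas1a, Oas2 and Oas3 were not tested. Oas2 and Oas3 were above background on no array and Oas1a on 1 ID8G array, with levels of -4.43 and -3.26 in ID8G and -3.84 and -4.0 in GO2 cells. Also above background on no array were Rsad2, which encodes the antiviral enzyme viperin, and Cmpk2, a nucleotide kinase gene. Isg20, an exonuclease gene, had levels of 2.72 and 2.85 in ID8G and 3.14 and 3.09 in GO2 cells, a difference of 1.26-fold that passed the adjusted p (0.029) only. Thus 5 of the 6 tested genes of this role were called higher (83.3%, against 5.96% of all genes) and 5 of 11 could not be tested. Ifit1 and Ifit3 were tested only through their GO2 arrays, which selected them toward a higher GO2 level. Of the 4 genes of this role above background on all 4 arrays, 3 were called higher, against 449 of 12308 such genes.

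**Figure D3:**
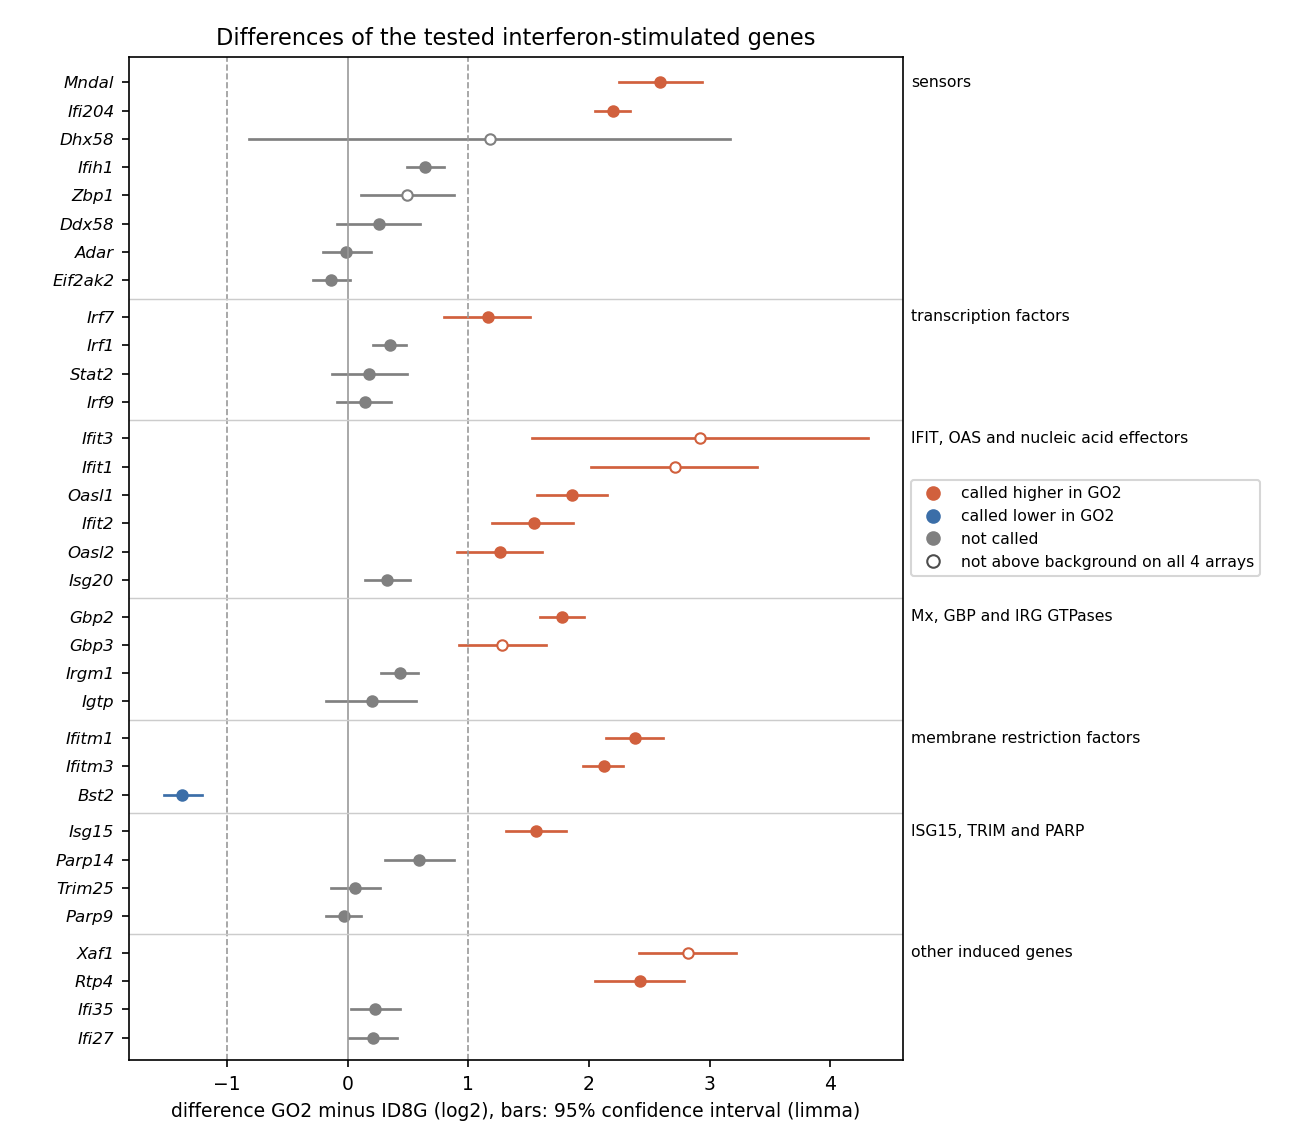
Difference between GO2 and ID8G cells of each tested interferon-stimulated gene (x axis, log2) with its 95% confidence interval from limma, genes grouped by role; open symbols mark the 6 genes not above background on all 4 arrays, whose measured difference is not a bound, and dashed lines a 2-fold difference. The 15 genes called higher lie between 1.16 and 2.92, and Bst2, the gene called lower, lies at -1.37.

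The interferon-inducible GTPases act on membranes that enclose pathogens. Gbp2 had levels of -3.32 and -3.28 in ID8G and -1.59 and -1.47 in GO2 cells. The arrays of each line were close together, and the difference was 3.42-fold (1.78 ± 0.07, adjusted p = 0.00046), or 1.1 on the log2 scale with normexp. Gbp3, close to Gbp2 on chromosome 3, had levels of -3.93 and -3.59 in ID8G, above background on 1 of the 2 arrays, and -2.52 and -2.44 in GO2 cells. It was called higher at 2.43-fold (1.28 ± 0.13, adjusted p = 0.00488), but its difference was 0.61 with normexp. Irgm1, a regulator of the immunity-related GTPases, had levels of 1.37 and 1.33 in ID8G and 1.81 and 1.75 in GO2 cells. The groups did not overlap, at 1.35-fold (adjusted p = 0.00869), and 3 probes gave 0.40 to 0.43. The difference of Igtp, another gene of that family, was 0.20 (95% interval -0.18 to 0.57), with overlapping groups. Gbp4, Gbp7 and Iigp1 were above background on no array.

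The membrane restriction factors held both directions. Ifitm3, whose protein blocks the fusion of viruses with endosomes, had levels of 2.12 and 2.21 in ID8G and 4.29 and 4.27 in GO2 cells. Ifitm1, its neighbor on chromosome 7, had levels of -1.34 and -1.15 in ID8G and 1.17 and 1.1 in GO2 cells. For neither gene did the groups overlap, and the differences were 4.33-fold for Ifitm3 (2.12 ± 0.06, adjusted p = 0.000289) and 5.20-fold for Ifitm1 (2.38 ± 0.09, adjusted p = 0.000429). Bst2, which encodes tetherin, a protein that holds budding virions at the cell surface, went the other way. Its levels were 2.91 and 2.84 in ID8G and 1.48 and 1.53 in GO2 cells. Both GO2 arrays were below both ID8G arrays, and the gene was 2.58-fold lower (-1.37 ± 0.06, adjusted p = 0.00056). Bst2 was called lower under every setting tried except the methods' t-test, with differences from -1.40 to -1.33 when each array was left out in turn.

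Isg15, a ubiquitin-like modifier and a standard readout of interferon signaling, had levels of 1.1 and 1.17 in ID8G and 2.59 and 2.80 in GO2 cells. The groups did not overlap, and the difference was 2.95-fold (1.56 ± 0.09, adjusted p = 0.00119). Usp18, whose protein removes ISG15 from its targets and dampens receptor signaling, was above background on 1 GO2 array and was not tested. Parp14, an ADP-ribosyltransferase gene, had levels of -2.25 and -2.04 in ID8G and -1.63 and -1.47 in GO2 cells. That difference, 1.51-fold, passed the adjusted p (0.0182) but not the 2-fold threshold. Its neighbor Parp9 and the ubiquitin ligase gene Trim25 had differences of -0.03 (95% interval -0.18 to 0.11) and 0.06 (-0.14 to 0.27). Trim30a was above background on no array.

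Among the other induced genes, Rtp4 and Xaf1 were called higher. Rtp4, a chaperone of receptors on their way to the cell surface, had levels of -1.68 and -1.63 in ID8G and 0.59 and 0.94 in GO2 cells. The groups were far apart relative to the arrays within a line, at 5.35-fold (2.42 ± 0.13, adjusted p = 0.00105). Xaf1, which encodes a partner of the apoptosis inhibitor XIAP, had levels of -3.52 and -3.13 in ID8G, above background on 1 of the 2 arrays, and -0.56 and -0.46 in GO2 cells. The measured difference was 7.06-fold (2.82 ± 0.15, adjusted p = 0.000923), or 1.81 on the log2 scale with normexp, and a second, dimmer Xaf1 probe could not be tested. Ifi27, with levels of 4.13 and 4.28 in ID8G and 4.40 and 4.44 in GO2 cells, and Ifi35, with 3.46 and 3.34 in ID8G and 3.59 and 3.68 in GO2 cells, were among the members with the highest signal. For both the GO2 arrays were above the ID8G arrays, but neither passed the test with its brighter probe (adjusted p = 0.0904 and 0.0752). A dimmer Ifi27 probe gave 0.38 and passed the adjusted p (0.0112) at less than 2-fold. That of Ifi35 gave 0.23 and did not pass (adjusted p = 0.123). Ifi44 was above background on no array.

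Several probes were tested for 10 members, and in each case all probes of the gene gave the same call. Of these 10 only Oasl1 was called, so every other member called higher or lower rested on a single tested probe. The tested probes of Ddx58, Ifi27 and Irgm1 fell on both sides of the adjusted p threshold. The widest spread between probes of a gene was 0.50, for Ddx58. Across the 15 members called higher the standard error ranged from 0.05 to 0.51 and the adjusted p from 0.000245 to 0.0184.

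The rest of the interferon pathway was described with 103 further genes, 97 of which had a probe and 71 of which were tested. No interferon gene was called different in either direction. Of 21 ligand genes, 5 were tested (Ifna1, Ifna5, Ifna14, Ifnab and Ifnl3), with differences from -0.49 to 0.47 and levels close to background. By limma 0 of these were called, while Ifna5 passed the adjusted p alone in the lower direction (-0.39, adjusted p = 0.0175). Ifnb1 was above background on 1 ID8G array and Ifng on none, so a change in either was not detectable here.

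**Figure D4:**
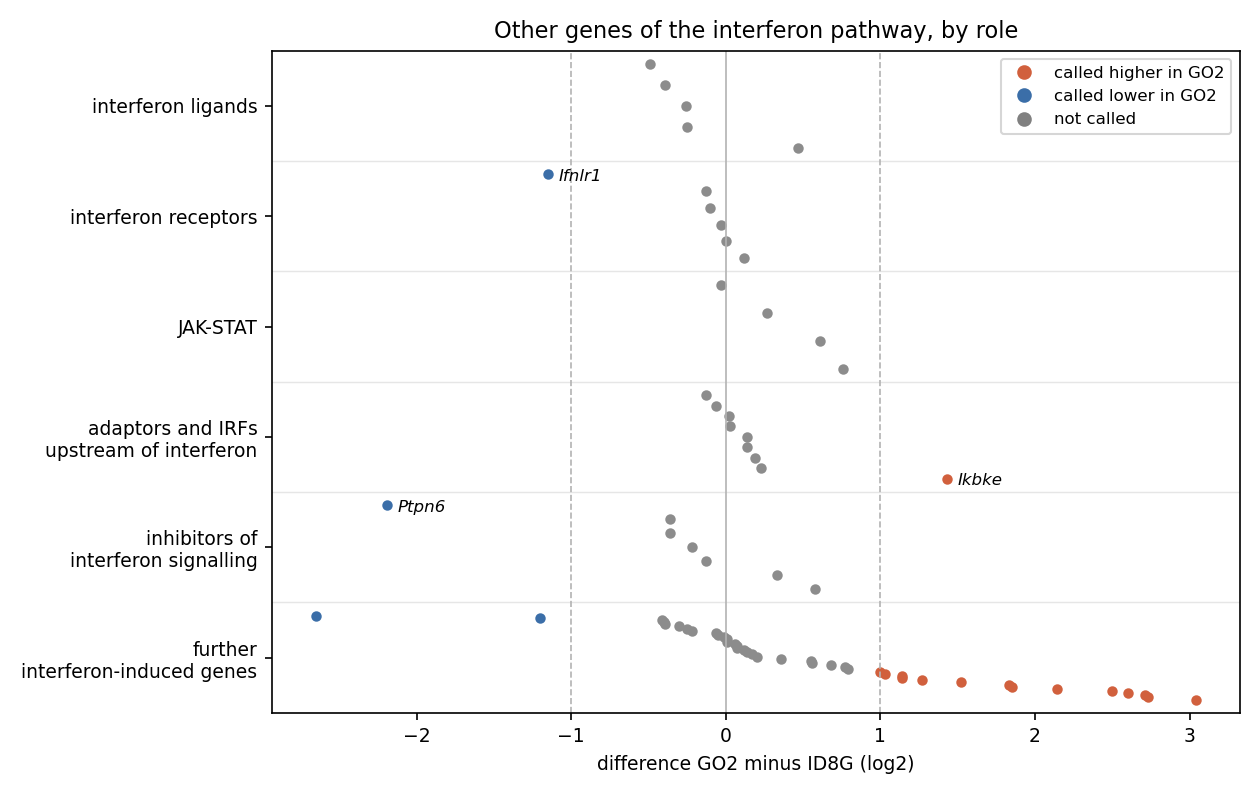
Difference of GO2 minus ID8G (x axis, log2) of each of the 71 tested interferon pathway genes outside the 48 members, in rows by role (y axis), with called genes in color and dashed lines at a 2-fold difference. Calls are 15 higher (21.1%, against 5.96% of all genes) and 4 lower (5.63%, against 3.94%), and 14 of the 15 higher genes lie in the row of further interferon-induced genes. Of the 69 genes above background on all 4 arrays, 13 were called higher and 4 lower.

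The receptor genes showed little difference apart from the type III receptor. Ifnlr1, its specific subunit, had levels of 0.88 and 1.05 in ID8G and -0.25 and -0.10 in GO2 cells. The groups did not overlap, and the gene was 2.21-fold lower in GO2 cells (-1.15 ± 0.09, adjusted p = 0.00282). Ifnar1 and Ifnar2, the type I receptor, had differences of -0.03 and -0.10. Ifngr1 and Ifngr2, the type II receptor, had differences of -0.13 and 0.00, and Il10rb, the shared subunit of the type III receptor, had 0.12. None of these 5 passed the test, and their adjusted p ranged from 0.162 to 0.976.

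The receptor-associated kinase genes differed by less than 2-fold. Jak1 had levels of 2.83 and 2.92 in ID8G and 3.48 and 3.49 in GO2 cells, a difference of 1.52-fold (adjusted p = 0.00428). Tyk2 was 1.20-fold higher (adjusted p = 0.0246), and Jak2, which acts beside Jak1 at the type II receptor, had a difference of -0.03 (adjusted p = 0.75).

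Of 9 adaptors, kinases and factors upstream of interferon, 1 was called higher (11.1%, against 5.96% of all genes) and none lower. Of the 8 above background on all 4 arrays, 0 were called higher. Ikbke, a kinase gene that is itself inducible, was below background on both ID8G arrays and at least 1.42-fold higher in GO2 cells (adjusted p = 0.00477), with levels of -4.43 and -4.77 in ID8G and -3.08 and -3.26 in GO2 cells. The bound is below 2-fold, and the call was lost with normexp (0.63) and with a floor at the lowest signal above background (0.51). Of 7 inhibitors of interferon signaling, only Ptpn6 was called, in the lower direction (14.3%, against 3.94% of all genes). It encodes the phosphatase SHP-1, had levels of -1.29 and -1.27 in ID8G and -3.22 and -3.71 in GO2 cells, and was 4.55-fold lower (-2.19 ± 0.18, adjusted p = 0.00279). Its probes disagreed, since a second gave -2.29 and another -0.17 (adjusted p = 0.337, not called), and the difference was -1.32 with normexp and -1.55 as a mean of probes. Socs1, a feedback inhibitor of JAK kinases, had a difference of 0.58 that did not pass the test (adjusted p = 0.0537).

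Among 40 further interferon-induced genes tested, 14 were called higher (35.0%, against 5.96% of all genes) and 2 lower (5.0%, close to the 3.94% of all genes). Of the 39 above background on all 4 arrays, 13 were called higher and 2 lower. Genes with the clearest separation included Uba7, which encodes the activating enzyme of ISG15 and had levels of -1.60 and -1.56 in ID8G and 0.99 and 1.05 in GO2 cells. Uba7 was 6.08-fold higher (2.60 ± 0.06, adjusted p = 0.000213). Ifi47, a gene of the immunity-related GTPases, had levels of -0.38 and -0.55 in ID8G and 2.24 and 2.28 in GO2 cells and was 6.63-fold higher (adjusted p = 0.000303). Sp100, a nuclear body protein gene, had levels of -2.65 and -2.70 in ID8G and -0.55 and -0.52 in GO2 cells and was 4.40-fold higher (adjusted p = 0.000248), or 1.55 on the log2 scale with normexp. In these 3 genes the arrays within a line differed by far less than the lines did.

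Apol9a and Apol9b, near-identical neighbors whose probes may not separate them, were 5.66-fold and 6.54-fold higher (adjusted p = 0.000325 and 0.000213). Ifi205, of the PYHIN family, was 3.55-fold higher (adjusted p = 0.000303), and Irgm2, a GTPase gene, was 3.62-fold higher (adjusted p = 0.0017), or 1.17 on the log2 scale with normexp. Lgals3bp, a secreted glycoprotein gene, was 2.87-fold higher (adjusted p = 0.00366). Phf11d was below background in ID8G cells and at least 2.21-fold higher in GO2 cells (adjusted p = 0.00497), though it did not pass the test with values set to the background floor (adjusted p = 0.0518) and had a difference of 1.16 with normexp.

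Chemokines induced by interferon were among the genes called. Ccl5, a lymphocyte attractant, had levels of -0.43 and -0.29 in ID8G and 0.70 and 0.86 in GO2 cells and was 2.20-fold higher (adjusted p = 0.00257). Cxcl10, a ligand of CXCR3, had levels of -0.54 and -0.29 in ID8G and 0.65 and 1.06 in GO2 cells and was 2.41-fold higher (adjusted p = 0.0103). Groups did not overlap for either gene, but Cxcl10 missed the test without ID8G array 1 (adjusted p = 0.0531) and without the filter on dim probes (0.0597), and Ccl5 was 0.93 on the log2 scale after spike-in scaling. Cxcl9 was above background on no array.

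The other genes called higher lay close to the 2-fold threshold. Samd9l had a difference of 1.14, Plscr2 of 1.03 and Ly6e of 1.0. After spike-in scaling they had differences of 0.94, 0.83 and 0.80. Plscr2 was also below 2-fold without ID8G array 2 (0.99) or GO2 array 1 (0.98), and Ly6e without ID8G array 1 (0.98) or GO2 array 2 (0.95). With normexp the calls of Ly6e (0.95) and Samd9l (0.95) were lost too. Ly6e further lost its call with median centering (0.97) and quantile normalization (1.0 after rounding).

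Slfn2 and Ifi27l2a were called lower. Slfn2, a Schlafen gene that acts on the quiescence of lymphoid cells, had levels of -0.60 and -0.67 in ID8G and -3.19 and -3.38 in GO2 cells. This gave a 6.26-fold lower value in GO2 cells (-2.65 ± 0.09, adjusted p = 0.000376), or -1.73 on the log2 scale with normexp. Ifi27l2a, related to Ifi27, had levels of -1.16 and -1.09 in ID8G and -2.15 and -2.51 in GO2 cells. It was 2.30-fold lower (adjusted p = 0.0064), or -0.80 on the log2 scale with normexp.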

How the data were processed

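RNA of ID8G and GO2 cells, 2 arrays each, was hybridized as Cy3-labeled cRNA to Agilent mouse arrays on 1 slide. The authors deposited scanner files from Feature Extraction 11.5.1.1 (per the file headers) with background-corrected spot intensity, linear and not normalized between arrays, and a table of log2 values made with GeneSpring. In the deposited log2 values, 82.5% lay within 0.001 of the scaled log2 levels described here after centering on each probe's median, so its scale, centering and direction were taken from this comparison. Its column medians were 0.1 and -0.05 for ID8G and 0.04 and -0.05 for GO2.

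Spots marked as outliers (132 to 195 an array) were left out, none was saturated, and spots of a probe were averaged. Levels were log2 intensities less the log2 of the array's 75th percentile, which was an intensity of 627 to 675. Probes with signal well above background on the pair of arrays of either line (28368 of 56605) entered a limma 3.58.1 fit (R 4.3.3) on cell line alone, with Benjamini-Hochberg adjustment over all of them. Each gene was read from its probe with the highest mean level. Symbols came from RefSeq accessions (GRCm38.p6 table), which matched 58.3% of probes. The arrays were designed on another build, so coordinates are given for RefSeq promoters only.

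Members and gene lists were chosen with earlier results of these data known. Named with their values were the called members, the 5 with the highest mean level, the largest and smallest difference of each role, called pathway genes, receptors and JAK-STAT genes, except 1 result that is not reported here. Ifih1, Irgm1, Parp14 and any further gene were named after their values were seen. The procedure was tested on simulated data. Alternatives were other background corrections and normalizations, other filters, a t-test, a block by replicate number, and each array left out. Sums of markers without the brightest gene were added after seeing the data. Figures were drawn with matplotlib 3.10.9.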

Additional observations from a re-analysis of the deposited data

How the results depend on the processing

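Of 15 members called higher, 11 remained with normexp, 14 with spike-in scaling, 14 with no filter on dim probes and 11 when signal above background on all 4 arrays was required. Without each array in turn the count ran from 13 to 16, and the lower count stayed at 1. The methods' t-test after Benjamini-Hochberg adjustment called 0 members higher and 0 lower, and 0 and 0 pathway genes. At an unadjusted p below 0.05 it had 15 members higher and 1 lower, where limma had 23 and 1. The adjusted p alone gave 26 pathway genes higher and 13 lower, in place of 15 and 4. At the full threshold these counts ran from 13 to 15 and from 4 to 6 without each array. Under the other settings, the t-test apart, they ran from 11 to 15 higher and from 3 to 6 lower. With no filter, 6 pathway genes were lower. The members' median of 0.64 became 0.47 with normexp, 0.44 with spike-in scaling, 0.44 with no filter and 0.43 with all 4 arrays above background, and ran from 0.47 (without ID8G array 1) to 0.70. The cause of these shifts was not tested, apart from the change in genes tested under the filters. With the replicate number as a block the counts were again 15 and 1, with 15 and 4 in the pathway, and no named call changed. The deviations of same-numbered arrays correlated at 0.0273, so the numbers were not taken to pair the arrays. The 7 spike-ins were 0.15 to 0.28 higher in GO2 cells, and scaling to them moved the median of all probes from -0.02 to -0.23. Of 1002 comparisons of named genes over all settings, 932 were on the same side of the call threshold, 62 lost the call, 8 gained it and none that was called reversed. All 8 gains came from taking the adjusted p alone, which drops the 2-fold threshold and so can only add calls. The methods' t-test gave 35 of the 62 losses. Some settings differ little from the main one, so the 932 are not independent checks. Uncalled differences near 0 changed sign with spike-in scaling for Irf9 (-0.07), Igtp (-0.01), Trim25 (-0.14) and Il10rb (-0.09), and for Trim25, Ifnar1 and Jak2 in other settings. Normexp used median pixel signals. The slide as a block was not run because there was 1 slide. Signal over background limits the 11 members that were not tested.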

Other observations

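Members that lie side by side on a chromosome in the RefSeq gene order were read together. Ifi204 and Mndal are adjacent on chromosome 1 and were both called higher, as was Ifi205 beyond Ifi203, for which no probe was matched. Ifit2 and Ifit3 are adjacent on chromosome 19, with Ifit1 beyond Ifit1bl1 and Ifit3b, and the 3 members were called higher, while Ifit1bl1 was above background on no array and Ifit3b on 1 GO2 array. Oasl2 and Oasl1 are adjacent on chromosome 5 and were both called higher, whereas Oas2 and Oas3, also adjacent, were above background on no array. On chromosome 3 Gbp5 and Gbp7 were above background on no array, and their neighbor Gbp3 was called higher, as was Gbp2. Rsad2 and Cmpk2, adjacent on chromosome 12, were above background on no array. Parp14, Dtx3l and Parp9 follow each other on chromosome 16 and had differences of 0.59, -0.22 and -0.03.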
